A study of Mus musculus with 2 samples.

Results

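The inhibitor of DNA binding (ID) proteins and the feedback inhibitors of bone morphogenetic protein (BMP) signalling were described in a pair of mouse melanoma lines, B16F1-GFP-D and B16F1-GFP-M. The genes are *Id1*, *Id2*, *Id3* and *Id4*, the inhibitory SMAD genes *Smad6* and *Smad7*, and the decoy receptor gene *Bambi*. They were found by gene symbol, as printed in the array files or as the current symbol of a probe's accession, and they make up 7 of 27790 genes or transcripts that the arrays cover. Together they are covered by 12 probes, each 60 bases long.

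B16F1 is a melanoma line of the C57BL/6 mouse, and both lines compared here carry a transfected green fluorescent protein (GFP) and descend from it. B16F1-GFP-M is the maternal line, grown from a selected GFP clone, and was injected as the challenge dose into vaccinated and control mice. B16F1-GFP-D grew from GFP-positive cells that were sorted from the pooled organs of tumour-free mice of both kinds at 1 year after the challenge, and it goes back to 1 colony, so that a property of the line cannot be told apart from a property of that clone. Both were kept in the same serum-containing medium and received no treatment, and their RNA was hybridised together on 2 arrays with exchanged dyes: Cy5 marked the maternal line on array 1 and B16F1-GFP-D on array 2, and Cy3 the other line. The arrays lie on 1 slide, and the labels name no separate cultures, so that there was 1 replicate per line. The lines were therefore compared without a test, and the standard deviation (SD) given with each value is that between the 2 arrays only.

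ID proteins hold a helix-loop-helix domain but no DNA-binding region. They bind E proteins and other basic helix-loop-helix (bHLH) transcription factors, keep them off DNA, and are known for holding back differentiation and sustaining proliferation in many progenitor and tumour cells. BMP receptors phosphorylate SMAD1, SMAD5 and SMAD9, which enter the nucleus with SMAD4 and switch on the *Id* genes together with *Smad6*, *Smad7* and *Bambi*, whose products then block the same receptors. Serum, growth factors and other signals also act on *Id* genes.

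The probes decide which stretch of each transcript was measured. Positions were read from the array files and refer to the mm9 assembly, whose gene annotation was not used here, so that exon or UTR is not assigned by position. The *Id3* probe covers chr4:135700075-135700249 on the plus strand. It spans 175 genomic bases with 60 bases of sequence and therefore crosses a gap of 115 bases, the mark of a spliced transcript. One *Id2* probe, at chr12:25780183-25780530 on the minus strand, crosses a gap of 288 bases in the same way, and its last 3 bases, in capitals, are a stop codon. The *Smad6* probe lies at chr9:63801378-63801437 on the minus strand. The *Id3* and *Id2* sequences are shown because a junction probe reads spliced RNA and cannot match genomic DNA along its whole length. The *Smad6* probe, shown beside them, spans 60 genomic bases and crosses no gap.
Id3 junction probe: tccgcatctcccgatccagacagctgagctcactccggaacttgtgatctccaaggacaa
Id2 junction probe: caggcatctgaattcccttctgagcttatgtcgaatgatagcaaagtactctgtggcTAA
Smad6 probe: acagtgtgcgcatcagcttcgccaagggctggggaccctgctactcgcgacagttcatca

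The promoters of *Id3* and *Id2* are shown because both genes passed the threshold below and because SMAD proteins bind short motifs near *Id* genes. The RefSeq table of the GRCm38.p6 assembly held 4 of the 7 genes, and the windows are the 250 bases before the annotated start, at chr4:136143572-136143821 on the plus strand for *Id3* and at chr12:25096093-25096342 on the minus strand for *Id2*. Capitals mark GGCGCC, a GC-rich motif bound by BMP-activated SMADs, GTCTG or its complement CAGAC, the SMAD box, and CCAAT or its complement ATTGG.
Id3 promoter: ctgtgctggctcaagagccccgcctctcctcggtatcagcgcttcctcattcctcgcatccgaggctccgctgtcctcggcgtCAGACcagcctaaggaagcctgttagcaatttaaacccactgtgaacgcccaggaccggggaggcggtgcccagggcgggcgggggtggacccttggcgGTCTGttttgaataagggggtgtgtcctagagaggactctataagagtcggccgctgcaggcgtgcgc
Id2 promoter: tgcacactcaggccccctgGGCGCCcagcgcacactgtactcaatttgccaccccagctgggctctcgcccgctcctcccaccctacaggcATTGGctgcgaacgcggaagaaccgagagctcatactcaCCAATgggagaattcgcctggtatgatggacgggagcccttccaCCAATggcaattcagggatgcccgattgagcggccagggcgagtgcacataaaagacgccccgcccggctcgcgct
The *Id3* window held 2 SMAD boxes and no GGCGCC. The *Id2* window held 1 GGCGCC, 3 CCAAT motifs and no SMAD box. Over all 32851 promoter windows of this length, searched on both strands, 42.2% held a SMAD box, 9.6% GGCGCC and 33.8% a CCAAT motif, so that none of these is rare. The *Id4* window held 1 GGCGCC and 2 CCAAT motifs, and the *Smad6* window none of the 3 motifs. The GC box, GGGCGG or CCGCCC, had 2 matches for *Id3*, 1 for *Id2*, 5 for *Id4* and 4 for *Smad6*, against 32.7% of all windows with at least 1. An E box, CANNTG, the sequence bound by E proteins, occurred once for *Id2* and not in the other 3 windows, while 66.2% of all windows held one. TGACGTCA, the cAMP response element, held by 1.5% of windows, and TATAAA, held by 12.4%, occurred in none of the 4 windows. The GC content was 62.8% for both *Id3* and *Id2*, 75.6% for *Id4* and 66.8% for *Smad6*, against a median of 52.4%. A match of letters is no binding site, and the arrays measured no binding.

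*Id3* was 3.06-fold and *Id2* 2.54-fold higher in B16F1-GFP-D, *Id1* was detected in B16F1-GFP-D only, and *Id4* was not detected. The feedback inhibitors stayed below 2-fold and had no common direction: *Bambi* was at 1.65-fold the level of B16F1-GFP-M, *Smad7* was 1.31-fold below it, and *Smad6* had opposite signs on the 2 arrays. A gene was taken as detected when the scanner software flagged its brightest probe as well above background on both arrays in 1 line or in both, and as called when it was at least 2-fold apart in the same direction on each array. By this rule 2 of the 6 detected genes were called higher, where 3.09% of the 12540 detected genes were called higher, and none was called lower, where 1.94% were. The median log2 ratio of the 6 was 0.84, also with *Id1* at the lower bound given below, and that of all detected genes was -0.0081. *Id1* was among the 6 through B16F1-GFP-D only, and it helps to set this median. Of the 5 members measured in both lines, the middle one was *Bambi*, at 0.72. The genes had been chosen with results of these data known, so that the count describes them and supports nothing further.

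**Figure D1:**
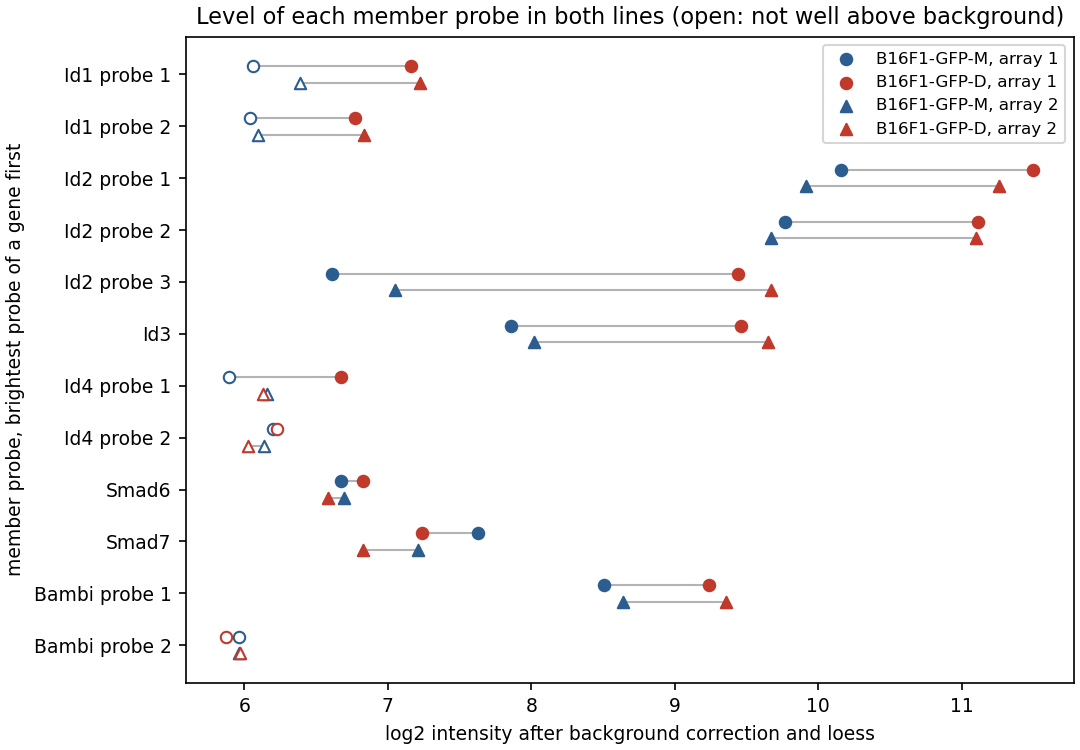
Level of each of the 12 probes on the log2 intensity scale (x axis), in B16F1-GFP-M (blue) and B16F1-GFP-D (red), on array 1 (circles) and array 2 (triangles), with open symbols where the spot was not well above background. Red lies to the right of blue on both arrays for every probe of *Id1*, *Id2* and *Id3* and for the first *Bambi* probe, and to the left for *Smad7*; levels of different probes are not comparable.

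*Id3* encodes the ID protein that restrains E2A-driven gene expression in lymphoid and many other cells. Its normalised log2 intensity was 9.46 on array 1 and 9.65 on array 2 in B16F1-GFP-D, and 7.86 and 8.02 in B16F1-GFP-M. Both values of B16F1-GFP-D lay above both of B16F1-GFP-M. The log2 ratio was 1.60 on array 1 and 1.63 on array 2, with a mean of 1.61 ± 0.02 (SD, n = 2 arrays). The ratio of *Id3* was thus nearly the same in both dye orientations, and the pooled SD between arrays over all detected genes was 0.15. Ranked by the ratio, *Id3* came 87th of 12540 detected genes. It was the only member still called at a 3-fold threshold. Only 1 probe reads *Id3*, and it is the junction probe shown above.

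*Id2* encodes an ID protein that also binds the unphosphorylated retinoblastoma protein, and it was measured by 3 probes. The brightest, at chr12:25778904-25778963 on the minus strand, had log2 intensities of 11.50 and 11.26 in B16F1-GFP-D and 10.16 and 9.91 in B16F1-GFP-M. Its log2 ratio was 1.34 on array 1 and 1.35 on array 2, with a mean of 1.35 ± 0.005 (SD, n = 2 arrays), which ranked 199th. The lines did not overlap, and the difference was far larger than the spread between the arrays. The junction probe had 11.11 and 11.10 in B16F1-GFP-D and 9.77 and 9.67 in B16F1-GFP-M, a mean log2 ratio of 1.39 ± 0.06 (SD, n = 2 arrays) or 2.61-fold. The probe that ends at the stop codon and the probe about a kilobase further along the transcript's strand therefore gave nearly the same value.

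The remaining *Id2* probe gave a larger difference. It was designed on the cDNA clone AK013239 and not on the RefSeq transcript, and it lies at chr12:25780080-25780139 on the minus strand, 43 bases beyond the end of the junction probe and 1116 bases before the brightest probe. Its first 30 bases are shown for that reason.
Id2 clone probe, bases 1 to 30: gtaatgtgcttgtgtgtctgttaaatgttt
Its log2 intensity was 9.44 on array 1 and 9.67 on array 2 in B16F1-GFP-D, and 6.61 and 7.05 in B16F1-GFP-M. The software flagged the spot as well above background in all 4 channels. The log2 ratio was 2.83 and 2.62, with a mean of 2.73 ± 0.15 (SD, n = 2 arrays), or 6.61-fold higher in B16F1-GFP-D. This probe had the 3rd highest ratio of 19141 detected probes. Its ratio exceeded that of the brightest *Id2* probe by 1.49 on array 1 and by 1.27 on array 2 on the log2 scale. Of the 4786 genes with more than 1 detected probe, 31 had a range between probes at least as wide as the 1.38 of *Id2*, or 0.648%, and the median range was 0.22. In B16F1-GFP-M the raw signal of this probe was 187 over a local background of 79.5 on array 1 and 58.2 on array 2, close enough to background for the correction to matter: with the scanner software's ratio the mean log2 ratio was 4.04, or 16.5-fold, and with no offset in the background correction 3.65. Whether the probe reads another transcript form of *Id2*, or something else, was not tested. All 3 probes were past 2-fold on both arrays.

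*Id1* encodes the ID protein whose transcription is a standard readout of BMP receptor activity. Its brighter probe, at chr2:152563036-152563095, had log2 intensities of 7.16 and 7.23 in B16F1-GFP-D and 6.06 and 6.39 in B16F1-GFP-M. B16F1-GFP-D was well above background on both arrays and B16F1-GFP-M on neither, so that only a bound can be given for the difference. *Id1* was at least 1.94-fold higher in B16F1-GFP-D. This bound takes, per array, the higher of the B16F1-GFP-M value and the lowest signal among probes well above background, after scaling between arrays (Aquantile). On array 2 the B16F1-GFP-M value was the higher, so that the bound there, 0.84 in log2, is the measured ratio itself. On array 1 the bound was 1.08. The measured log2 ratio was 1.10 on array 1 and 0.84 on array 2, with a mean of 0.97 ± 0.19 (SD, n = 2 arrays), so that *Id1* passed 2-fold on array 1 only and was not called.

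The size of the *Id1* difference turned on the background. The raw signal of that probe was 89.9 over a local background of 19.5 in B16F1-GFP-D on array 1 and 227 over 76.5 on array 2, whereas in B16F1-GFP-M it was 114 over 77.5 and 42.1 over 21.0. The offset of 50 used here draws the ratios of such dim spots towards 0. With an offset of 0 the ratio read 2.32 for array 1 and 2.13 for array 2 in log2, and the bound was at least 3.73-fold. The scanner software gave 3.38 and 3.55, values against spots of B16F1-GFP-M that it flagged as not well above background, so that they set no size. *Id1* passed the 2-fold rule with this ratio and with an offset of 0, where *Id1*, *Id2* and *Id3* made up 3 of the 6. The scanner software's ratio called 6.05% of detected genes higher, and an offset of 0 called 5.06%. The second *Id1* probe, at chr2:152563046-152563105, overlaps the first by 50 bases and is no independent measurement. Its log2 ratio was 0.73 on array 1 and 0.74 on array 2, and B16F1-GFP-M was again not well above background, which gave a bound of at least 1.49-fold, or 2.63-fold with an offset of 0.

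*Id4*, which encodes an ID protein known from neural and mammary progenitors, was at background in most channels. The brighter of its 2 probes, at chr13:48359180-48359239, was well above background once, in B16F1-GFP-D on array 1, with a log2 intensity of 6.68 against 5.89 in B16F1-GFP-M. On array 2 the values were 6.13 and 6.16. The log2 ratio was 0.79 on array 1 and -0.03 on array 2, a mean of 0.38 ± 0.58 (SD, n = 2 arrays), so that the spread exceeded the difference and no direction can be given. The other probe, 452 bases away at chr13:48358668-48358727, was not well above background in any channel and had a mean of -0.04.

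**Figure D2:**
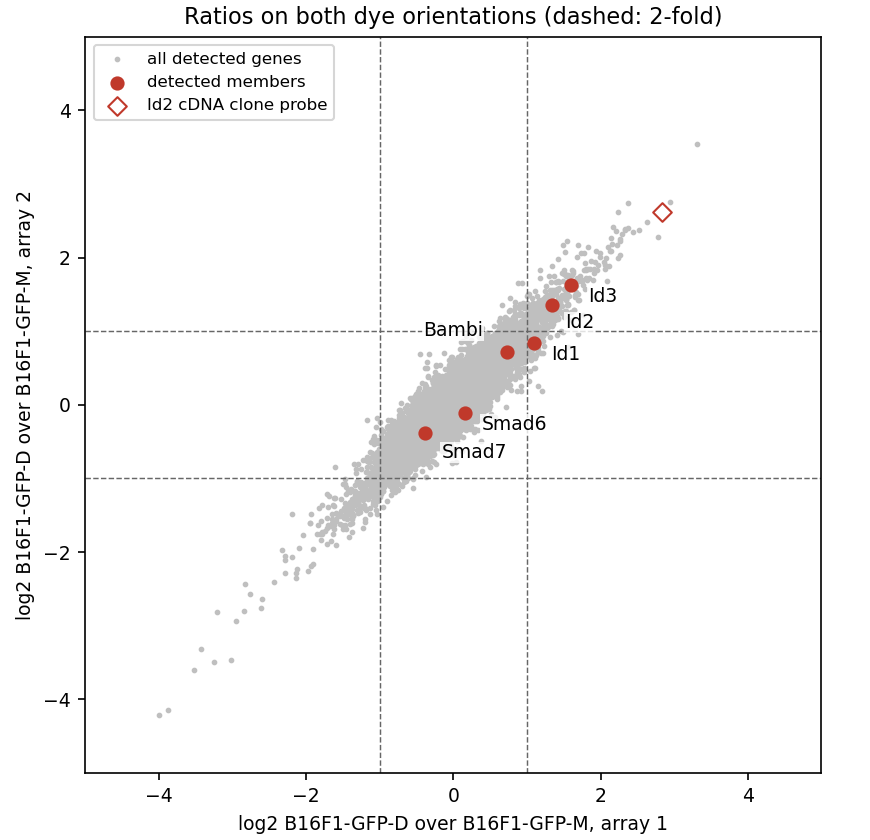
Log2 ratio (B16F1-GFP-D over maternal B16F1-GFP-M) on array 1 (x axis) against array 2 (y axis) for the 12540 detected genes (grey), the 6 detected members (red) and the *Id2* probe from the cDNA clone (open diamond), with dashed lines at 2-fold. *Id3* and *Id2* lie past the lines on both axes, *Id1*, whose level in B16F1-GFP-M was not well above background, on array 1 only, and the clone probe, at 2.83 and 2.62, near the upper end of all values.

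The inhibitory SMADs bind the activated receptors and recruit ubiquitin ligases to them. *Smad7*, which blocks receptors of both the TGF-β and the BMP branch, was read by a single probe at chr18:75555371-75555430. Its log2 intensity was 7.24 on array 1 and 6.83 on array 2 in B16F1-GFP-D, and 7.63 and 7.21 in B16F1-GFP-M. B16F1-GFP-M was the brighter line on each array, although the value of B16F1-GFP-D on array 1 exceeded that of B16F1-GFP-M on array 2. The log2 ratio was -0.39 on array 1 and -0.38 on array 2, with a mean of -0.39 ± 0.007 (SD, n = 2 arrays), which is below the 2-fold threshold and ranked 10284th of 12540. The scanner software gave -0.74 and -1.03, so that it crossed 2-fold on array 2 only.

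*Smad6*, which acts mainly on the BMP branch and is itself a BMP target, had log2 intensities of 6.83 and 6.58 in B16F1-GFP-D and 6.67 and 6.70 in B16F1-GFP-M. All were well above background by the software's flag, although the raw signal of B16F1-GFP-M was 160 over a local background of 73.0 on array 1. The log2 ratio was 0.15 on array 1 and -0.11 on array 2, with a mean of 0.02 ± 0.19 (SD, n = 2 arrays). The difference was smaller than the spread between the arrays, and no direction can be given.

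*Bambi* encodes a transmembrane protein shaped like a type I receptor without a kinase, which titrates TGF-β family receptors. The array carries its main probe, at chr18:3512455-3512514, in 10 spots, which makes it the most repeatedly measured of the 12. The log2 intensity was 9.24 on array 1 and 9.35 on array 2 in B16F1-GFP-D, and 8.51 and 8.64 in B16F1-GFP-M. The lines did not overlap. On array 1 the log2 ratios of the 10 spots ran from 0.69 to 0.77 (SD 0.03), and on array 2 those of the 8 spots that were not outliers ran from 0.64 to 0.76 (SD 0.04). The mean ratio of the arrays was 0.73 and 0.71, or 0.72 ± 0.008 together (SD, n = 2 arrays), and 92.3% of detected genes had a lower ratio. *Bambi* was thus measured as higher in B16F1-GFP-D in every spot used, and below 2-fold in every one. Its other probe, 3493 bases away at chr18:3516008-3516067, was not above background in any channel and had ratios of -0.09 and 0.01.

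The 5 members measured in both lines ran, by their log2 ratio, from *Id3* (1.61) over *Id2* (1.35), *Bambi* (0.72) and *Smad6* (0.02) to *Smad7* (-0.39), and the array values of neighbours in this order did not overlap. The scanner software gave the same order, with *Id3* at 1.96, *Id2* at 1.40, *Bambi* at 0.84, *Smad6* at 0.05 and *Smad7* at -0.89. *Id1*, for which B16F1-GFP-M gave no level above background, has no place in this order. In RNA of a whole culture, a difference in the share of cells that express a gene and a difference in RNA per cell cannot be told apart.

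**Figure D3:**
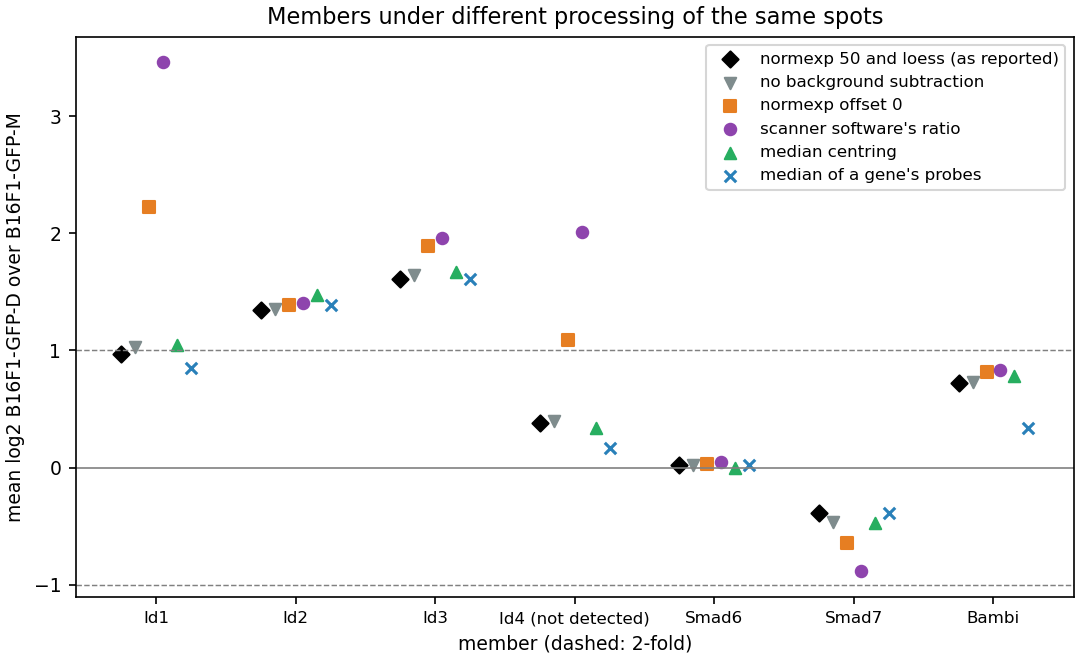
Mean log2 ratio between the lines, B16F1-GFP-D over B16F1-GFP-M (y axis), of each member (x axis) under 6 ways of processing the same spots, with dashed lines at 2-fold. *Id2* stays between 1.35 and 1.47, whereas *Id1*, not well above background in B16F1-GFP-M, runs from 0.85 to 3.46 and the undetected *Id4* from 0.17 to 2.01, so that no size can be read for these.

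Genes next to the members on the chromosome were read in the same way. Within 1 Mb on either side of *Id3* there were 23 detected genes, with a median log2 ratio of 0.28. Of these, *E2f2*, which encodes an activating cell-cycle transcription factor and lies 50487 bases away, was called higher with 1.53. Around *Id2* the median of 9 genes was 0.07, with *Rrm2*, a subunit of ribonucleotide reductase, at 2.20 and *Mboat2*, a lysophospholipid acyltransferase gene, at 1.72 called higher. Around *Id1* the median of 22 genes was -0.10, with *Tpx2*, a spindle assembly factor, called higher at 1.24 and *Trib3*, a stress-induced pseudokinase gene, called lower at -3.24. The medians were 0.06 around *Smad6* (14 genes, of which *Zwilch*, a kinetochore gene, was called higher at 1.11), 0.07 around *Smad7* (8 genes) and -0.36 around *Bambi* (3 genes). The ratios of *Id2*, *Id1*, *Bambi* and *Id3* lay above the median of their neighbours, which rests on only 3 genes for *Bambi*. Whether a stretch of the genome differed between the lines was not tested.

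The other genes of the pathway, 155 in 14 lists, showed no common shift. Of these, 69 were detected, 2 were called higher, or 2.90%, and 1 lower, or 1.45%, close to the 3.09% and 1.94% of all detected genes. Their median log2 ratio was 0.0082.

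No ligand of the BMP group was detected. All 14 were on the arrays. *Bmp4*, the ligand most often tied to *Id* induction, had log2 intensities of 6.28 and 6.22 in B16F1-GFP-D and 6.34 and 6.18 in B16F1-GFP-M. Of these, only the value of B16F1-GFP-M on array 1 was flagged as well above background. Of 13 TGF-β and activin ligands 6 were detected, with a median of -0.13. They ran from *Tgfb3* at -0.18 ± 0.05 to *Gdf1* at 0.70 ± 0.16 (SD, n = 2 arrays), and none was called. Of the 15 secreted antagonists 5 were detected, with a median of -0.08. They ran from *Dand5* at -0.36, a nodal and BMP antagonist, to *Twsg1* at 0.28, a modulator that binds BMPs with chordin.

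No receptor was called. Of 12 BMP receptors and co-receptors 8 were detected, with a median log2 ratio of -0.03. *Bmpr1a*, a type I BMP receptor, had -0.11 on array 1 and 0.35 on array 2, so that no direction can be given. *Bmpr2*, the type II receptor, had -0.44 and -0.34, with a mean of -0.39 ± 0.07 (SD, n = 2 arrays). The co-receptor *Rgma* was lowest, at -0.47 ± 0.19 (SD, n = 2 arrays). *Bmpr2* and *Rgma* were thus below 0 on both arrays by more than their spread, and below 2-fold. Of 4 TGF-β and activin receptors 3 were detected, between -0.35 for *Acvr1b* and 0.02 for *Tgfbr2*.

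The SMADs that carry the BMP signal had negative log2 ratios where detected, the opposite sign to *Id1*, *Id2* and *Id3*, and *Smad5* was called lower. *Smad5* had log2 intensities of 11.51 on both arrays in B16F1-GFP-D and 12.62 and 12.52 in B16F1-GFP-M. Its log2 ratio was -1.11 and -1.02, with a mean of -1.06 ± 0.06 (SD, n = 2 arrays) or 2.09-fold lower, and it was the only gene of the 14 lists called lower. Its 3 probes did not give the same size: the one nearest to 0 had -0.33, and with the median of the probes, -0.86, *Smad5* was not called. *Smad1* was at -0.52 ± 0.19 and the common partner *Smad4* at -0.56 ± 0.22 (SD, n = 2 arrays), each below 0 on both arrays and neither called. A second probe of *Smad1* was at 0.001 and one of *Smad4* at -0.10. *Smad9* was not detected. In the TGF-β branch *Smad3* was at 0.54 ± 0.04 (SD, n = 2 arrays), and *Smad2* had -0.16 and 0.39. The median of the 5 detected SMADs was -0.52.

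No other intracellular inhibitor or target was called. All 15 intracellular inhibitors, such as ubiquitin ligases and corepressors, were detected, with a median of -0.22. They ran from *Tgif1*, a corepressor, at -0.78 to *Smurf1*, a ubiquitin ligase for SMADs and receptors, at 0.23. *Tgif1* was well above background in B16F1-GFP-D on array 2 only, and it passed the 2-fold rule by the scanner software's ratio, at -2.15, and with an offset of 0, at -1.58. Of 15 other BMP targets, genes such as *Msx1*, *Msx2* and *Dlx5*, only *Gata2* at 0.01 and *Runx2* at 0.09 were detected, both transcription factors of lineage choice. These 2 were well above background in B16F1-GFP-M on both arrays but in B16F1-GFP-D on array 2 only, and the other 13 were not detected on both arrays in either line. Of 12 TGF-β targets 5 were detected, between -0.33 for the collagen gene *Col1a2* and 0.43 for *Ccn2*, a matricellular protein, with a median of 0.39, and 3 of the 5 were above 0 on both arrays.

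Of the binding partners of the ID proteins, the 3 E proteins were all detected and none was called. *Tcf4*, which encodes E2-2, had -0.75 on array 1 and -0.46 on array 2, with a mean of -0.61 ± 0.21 (SD, n = 2 arrays). Of its 3 probes the one nearest to 0 had -0.16. *Tcf12*, which encodes HEB, had -0.38 and -0.07, and with the median of its probes it turned to 0.11. *Tcf3*, which encodes E12 and E47, was on the other side, with 0.35 and 0.48 and a mean of 0.41 ± 0.09 (SD, n = 2 arrays). Its other probe was at 0.17. The E proteins thus had no common direction. Of 27 tissue-specific bHLH genes 4 were detected, from *Neurog3* at 0.12 to *Lyl1*, a haematopoietic bHLH factor, at 0.98 ± 0.06 (SD, n = 2 arrays). *Lyl1* was past 2-fold on array 2 only, where B16F1-GFP-M was not well above background.

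Among the HES, HEY and BHLHE repressors 3 of 8 were detected, and *Bhlhe40*, a bHLH repressor of the circadian and hypoxic responses, was called higher. Its log2 intensity was 9.57 and 9.51 in B16F1-GFP-D against 8.27 and 8.30 in B16F1-GFP-M, with a mean log2 ratio of 1.26 ± 0.07 (SD, n = 2 arrays) or 2.39-fold. Regulators of ID protein stability were all 4 detected, with a median of 0.38. The list does not separate genes that protect ID proteins from genes that degrade them. The arrays measured no protein, so that this median gives no direction for stability. Read from the brightest probe, *Usp1*, the deubiquitinase that protects ID proteins from degradation, was highest of the 4, at 0.63 ± 0.07 (SD, n = 2 arrays) or 1.55-fold. Its cofactor *Wdr48* was lowest, at -0.12. *Fzr1*, another of the 4, was at 0.47 ± 0.21 (SD, n = 2 arrays), and its other probe was at 1.04, above the value of *Usp1*.

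Of 7 CDK inhibitor and pocket protein genes, which lie downstream of ID and E proteins in cell-cycle control, 6 were detected, and *Rbl1*, which encodes the pocket protein p107, was called higher. It had 9.11 and 9.23 in B16F1-GFP-D and 8.04 and 8.01 in B16F1-GFP-M, a mean log2 ratio of 1.15 ± 0.10 (SD, n = 2 arrays) or 2.21-fold. *Cdkn1a*, which encodes p21 and is activated by E proteins, had -0.82 and -0.73 and a mean of -0.77 ± 0.06 (SD, n = 2 arrays) or 1.71-fold. It was not called at 2-fold, and neither was *Cdkn1b* (p27) at -0.83. *Cdkn1c* (p57) went the other way, at 0.42, and was called higher by the scanner software's ratio, at 1.55. Its level in B16F1-GFP-M was well above background on array 1 only. The detected CDK inhibitors thus had no common direction.

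**Figure D4:**
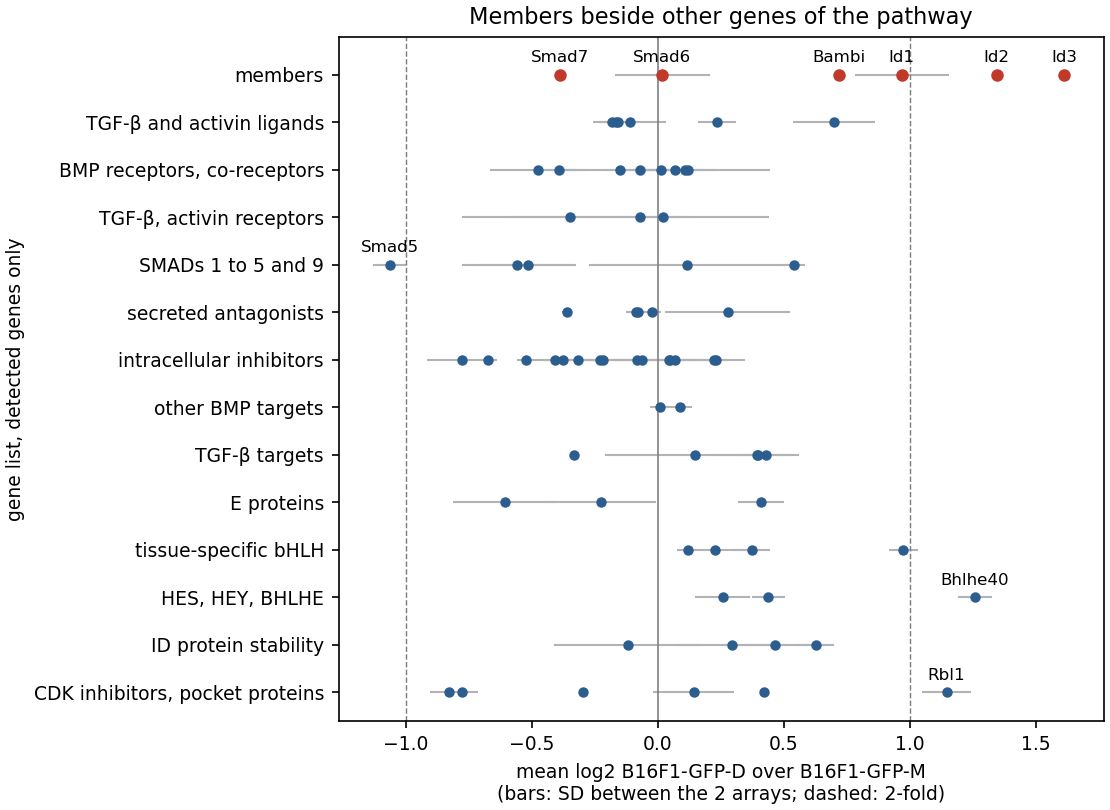
Mean log2 ratio between the lines, B16F1-GFP-D over B16F1-GFP-M (x axis), of the detected members (red, top) and of the detected genes of the other lists (blue), with bars for the SD between the 2 arrays and dashed lines at 2-fold; the BMP ligands, of which none was detected, are left out. *Smad5* is the only labelled gene of the lists on the lower side, and *Bhlhe40* and *Rbl1* are those on the higher side.

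Over the arrays as a whole, 44.2% to 60.7% of spots were well above background in a channel, more in the Cy5 channel of each array, and no spot was saturated. All 10 melanocyte markers were detected in both lines, with a median log2 ratio of -0.37, and none was called. Of these, 6 were below 0 on both arrays and 2 above 0 on both. They ran from *Mitf*, the melanocyte master regulator, at -0.92 to *Pmel* at 0.30, and another *Mitf* probe was at -0.51. The summed linear intensity of the 10 was 346773 and 377467 in B16F1-GFP-D and 435919 and 365425 in B16F1-GFP-M. None of the markers of other cell types was called. Of 8 fibroblast markers 3 were detected in B16F1-GFP-D and 1 in B16F1-GFP-M, and their summed intensity was 690 to 704 in B16F1-GFP-D and 647 to 652 in B16F1-GFP-M. *Pdgfrb*, a fibroblast and pericyte receptor, had log2 ratios of 0.98 and 0.69 and was at least 1.68-fold higher in B16F1-GFP-D, or at least 3.32-fold with an offset of 0, since B16F1-GFP-M was not well above background on either array. The collagen genes had means of 0.40 (*Col1a1*) and -0.33 (*Col1a2*). Of 7 endothelial markers only *Vwf* was detected, with log2 ratios of 0.74 and 0.70, and the summed intensity was 559 to 584 against 506 to 508 in B16F1-GFP-M. Of 7 leukocyte markers *Cd68*, with 0.51 and 0.36, and *Cd3e*, with -0.06 and 0.05, were detected, with sums of 557 to 593 against 545 to 581, and none of 5 epithelial markers was. *Col1a1*, *Vwf*, *Cd68* and *Cd3e* were well above background in B16F1-GFP-M on array 1 only. *Pdgfrb*, *Vwf*, *Cd68* and *Col1a1* had ratios above 0 on both arrays. Each of them passed the detection rule through B16F1-GFP-D only, and that favours a ratio above 0. Their sign therefore says nothing on other cell types. Of the other detected markers of these types, *Col1a2* was below 0 on both arrays and *Cd3e* had opposite signs. The fibroblast markers *Col3a1*, *Dcn*, *Lum*, *Pdgfra* and *Thy1* were not detected, and another detected probe of *Vwf* was at 0.20. Most probes behind the sums were near background. *Pecam1*, *Cdh5*, *Ptprc* and *Epcam*, which define the last 3 types, were not detected. According to the paper, the GFP-positive cells were cloned after expansion because GFP-negative host cells remained among them after sorting. The part of other cell types in the *Id* values was not tested.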

How the data were processed

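RNA of both lines was hybridised to 2 dye-swapped Agilent 2-colour arrays. The authors' scanner software, Agilent Feature Extraction 10.7.3.1, gave the deposited intensities of the spots and of the local background around them, without normalization. The deposited ratios are on a log10 scale, Cy5 over Cy3, after the software's own background subtraction and dye normalization, and the value table of the series repeats them, rounded. How the authors normalized the arrays further is not given in the sources used here.

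Outlier spots (143 and 176) were left out of 43379 spots of 41174 probes. With limma 3.58.1 in R 4.3.3, mean signals were corrected by normexp (offset 50) against the median local background and normalized by loess within each array, without scaling between arrays. The sign of each log2 ratio was set to B16F1-GFP-D over the maternal line, spots of a probe were averaged, and each gene was read from its brightest probe (41164 probes). Symbols came from the RefSeq table of GRCm38.p6 (27190 of 28075 probes with a RefSeq accession matched), which was used for names and promoter windows. Python 3.11.15 with pandas 2.3.3, numpy 2.4.6 and matplotlib 3.10.9 made the tables and figures, and the procedure was tested on simulated data.

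A call needed a log2 ratio of 1 or more, or of -1 or less, on both arrays and a probe flagged as well above background on both in 1 line or in both. Without replicate cultures this is a rule of size and no test. Named were all member probes, every called gene of the 14 lists or else a list's highest and lowest detected gene, and *Tcf3*, *Tcf4*, *Tcf12*, *Smad1*, *Smad5*, *Smad4*, *Bmpr1a*, *Bmpr2*, *Bmp4*, *Cdkn1a* and *Usp1* whatever their value. Members and lists were chosen with earlier results of these data known. *Smad2*, *Smad3*, *Smad9*, *Cdkn1b*, *Cdkn1c*, *Fzr1*, the called neighbours within 1 Mb and the named markers lie outside that rule and were chosen after their values were seen. The alternatives tried were the software's ratio, the series value table, no offset, no background subtraction, Aquantile scaling, median centring, each array alone, a gene's median probe, and other filters and thresholds.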

Additional observations from a re-analysis of the deposited data

How the results depend on the processing

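Of 11 alternatives other than thresholds, 8 changed the ratio of some member; in these *Id1*, *Id2*, *Id3*, *Smad7* and *Bambi* had the same direction throughout, *Id4* in 7 and *Smad6* in 6. Aquantile scaling and the other filters on dim probes leave the ratios as they are. *Id2* and *Id3* were called in all settings but median centring, and *Id2* not at 3-fold. The scanner software's ratio called 759 genes higher and 597 lower, among them 6 and 2 of the pathway lists, and gave log2 ratios of 3.46 for *Id1*, 1.96 for *Id3*, 2.01 for *Id4* and -0.89 for *Smad7*. The series value table gave 758, 594, 6, 2, 3.47, 1.96, 2.01 and -0.89 in the same order. An offset of 0 gave 635 higher and 442 lower, 2 pathway list genes lower, and 2.22, 1.89, 1.09 and -0.64 for those members. Median centring left 45 genes higher and 19 lower, 0 members and 0 pathway list genes in either direction; it leaves opposite dye shifts on the arrays, with *Id3* at 0.70 on array 1 and 2.64 on array 2. The share of calls that were higher was 61.4% here and 70.3% then. Read from the median of all its probes, *Bambi* was at 0.34, *Id4* at 0.17, and by the same reading 0 pathway list genes were called lower, and 243 genes called lower became 165. With each array alone *Id4* ran from -0.029 to 0.79, and *Id1* was called on array 1. At 1.5-fold, 4 members, with *Id1* and *Bambi* added, 1100 genes higher and 880 lower, and 5 pathway list genes lower were called. At 3-fold, 1 member (*Id3*), 74 and 49 genes, and 0 pathway list genes in either direction were called. Where the causes do not follow from a setting's construction, they were not tested.

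No paired analysis was possible because there is 1 replicate of each line. The slide could not be used as a block, since it holds both arrays. Values of *Id1* and *Id4* set no size, since B16F1-GFP-M was not well above background. Signal over background limits *Id1*, *Id4*, *Smad6*, *Smad7* and the *Id2* clone probe, whose sizes depend on the background correction. A dye-swapped pair of arrays says nothing about variation between cultures or clones.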
